A study of Arabidopsis thaliana with 8 samples.

Results

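Roots of wild-type Arabidopsis thaliana seedlings (accession Columbia-0, Col-0) were compared after 24 h at low or adequate inorganic phosphate (Pi), by sequencing of polyadenylated RNA. The libraries were chosen from the labels as all those of wild-type roots, 4 of the 8 in the series, and the response was followed across every annotated feature with enough counts (20262 of 40246). Seedlings grew on reduced-strength Murashige and Skoog medium with 0.2% sucrose at 22 °C, with 16 h of light and 8 h of dark. At day 6 they were moved to 0.625 mM Pi (adequate) or to 1 µM Pi (low), and roots were taken at 7 days of age. Each supply was represented by 2 libraries, labelled as biological replicates and numbered Exp 1 and Exp 2, so every comparison sets 2 libraries against 2. The other 4 libraries of the series, from roots of the bzr1-D line in the same background and on the same media, entered the fit and are used below for a side-by-side reading. The bzr1-D mutation is a dominant gain of function in BZR1, which regulates transcription downstream of the brassinosteroid receptor.

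Plants take up phosphorus as Pi, through transporters of the PHT1 family. When Pi runs short, the transcription factor PHR1 and its relatives, held in check by SPX proteins while Pi is plentiful, bind a promoter element called P1BS and switch on genes for uptake, for secreted phosphatases and nucleases, and for the replacement of membrane phospholipids by galactolipids and sulfolipids. Roots also respond locally, by changes in growth and in cell walls. The series asked how this answer depends on brassinosteroid signalling.

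The 4 wild-type libraries held 17902669 to 22150569 counts, so a level of 1 CPM (read counts relative to library size, scaled between libraries by TMM) rested on at least 17.9 counts. Markers of root tissue were present in all of them: PYK10, a beta-glucosidase of roots whose gene overlaps another, lay between 6960 and 9366 CPM, and the sum of the cortex and epidermis markers between 7048 and 9453 CPM. The summed level of 15 shoot markers was 136 and 127 CPM at adequate Pi (Exp 1 and Exp 2) and 123 and 154 CPM at low Pi. Among them, the light-harvesting gene LHCB1.1 differed most between the Exp numbers. It stood at 0.557 and 0.0899 CPM at adequate Pi and at 0.165 and 5.57 CPM at low Pi. The low Pi library of Exp 2 stands apart for this gene, and less so for the sum. The part of shoot transcripts in the results below was not tested. In bulk tissue, fewer cells of a type and less RNA per cell cannot be told apart. A log2 ratio within Exp is that of the low over the adequate library of the same number, on the scale of CPM plus 0.5. A log2 fold change is the fitted value over both Exp numbers, with its standard error (SE).

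In the fit with the Exp number as a block, 13 genes were higher and 4 lower at low Pi, of 20262 features tested (edgeR's quasi-likelihood test, adjusted p under 0.05). The background rate of calls was 0.0839% in either direction, 0.0642% higher and 0.0197% lower. The called genes encode enzymes of carbon and phospholipid metabolism, a calcium channel, peroxidase and dirigent proteins, cytochromes P450, and proteins of the cell wall. For all 13 genes that rose, both low Pi libraries were above both adequate ones, which held for 11.9% of all features. For 2 of the 4 that fell, both were below, against 10.7% of all features. The genes were chosen by a test on these same libraries, so this separation describes them and adds no support to the calls. Of the 17, 15 changed by more in Exp 2 than in Exp 1. Without the block, edgeR called 0 genes higher and 0 lower, with 331 features at an unadjusted p under 0.05, and DESeq2 called 28 and 0. DESeq2 with the block called 53 higher and 18 lower of the 20262, the numbers to set beside its calls in the lists below. In the blocked fit, 1095 features had an unadjusted p under 0.05 (5.4% of features), 626 of them higher and 469 lower. That threshold gives 1013 features where none differs.

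PCK2, a phosphoenolpyruvate carboxykinase that makes phosphoenolpyruvate from oxaloacetate, had the smallest adjusted p. It (AT5G65690, chromosome 5, 26266340 to 26269616) stood at 47.0 and 45.7 CPM in the adequate libraries and at 95.0 and 97.6 CPM in the low ones. Both low libraries lay at about the same height, and the log2 fold change was 1.05 ± 0.08 (SE, n = 2 libraries per group; adjusted p = 0.00094, edgeR). GDPD2, a glycerophosphodiester phosphodiesterase that acts on the debris of phospholipid breakdown, likewise moved by almost the same amount in each Exp. It went from 121 to 198 CPM in Exp 1 and from 132 to 202 CPM in Exp 2, a log2 fold change of 0.66 ± 0.10 (adjusted p = 0.032, edgeR). The isoenzyme PCK1 had 475 and 582 CPM at adequate Pi and 554 and 602 CPM at low Pi, so its groups overlap, and its fold change was 0.14 ± 0.12 (adjusted p = 1.0).

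A second group of called genes was near 0 CPM at adequate Pi and rose from there. PP2-B14, which encodes a protein with a lectin-like phloem protein domain, went from 0.152 to 2.86 CPM in Exp 1 and from 0.225 to 8.32 CPM in Exp 2 (3, 52, 5 and 154 counts). Its log2 fold change was 4.79 ± 0.49 (adjusted p = 0.0058, edgeR). CNGC19, a cyclic nucleotide-gated calcium channel, stood at 1.27 and 1.21 CPM at adequate Pi and at 5.84 and 10.9 CPM at low Pi. Its adequate libraries lay close together, and its fold change was 2.73 ± 0.29 (adjusted p = 0.0058). PA2, a class III peroxidase of the cell wall, went from 0.658 to 3.96 CPM in Exp 1 and from 0.854 to 10.11 CPM in Exp 2 (3.16 ± 0.34, adjusted p = 0.0071). DIR5, a dirigent protein of the kind that steers the coupling of phenolic radicals, was at 0 and 0.719 CPM at adequate Pi and at 0.826 and 9.08 CPM at low Pi (3.81 ± 0.41, adjusted p = 0.0058). For DIR5 the highest adequate library nearly meets the lowest low library.

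The cytochrome P450 CYP706A2 rose from 0.253 to 3.96 CPM in Exp 1 and from 0.719 to 9.997 CPM in Exp 2 (3.78 ± 0.42, adjusted p = 0.013). The genes AT5G52670 and AT5G52760 on chromosome 5, both annotated as copper transport family proteins, rose by 2.78 ± 0.40 and 4.54 ± 0.67 (adjusted p = 0.032 and 0.047, edgeR). EXPA12, an expansin that loosens the wall, rose by 3.64 ± 0.53 (adjusted p = 0.041), and XTH23, which cuts and rejoins xyloglucan, by 1.1 ± 0.13 (adjusted p = 0.010). XTH23 stood at 10.03 and 12.7 CPM at adequate Pi and at 20.04 and 29.0 CPM at low Pi. AT2G34930, annotated as a leucine-rich repeat protein of a disease resistance family, and AT5G47740, an adenine nucleotide hydrolase-like protein, rose by 0.97 ± 0.15 and 1.06 ± 0.14. Both overlap another annotated gene; whether the authors' counting used strand is not known here, so their counts may include reads of the neighbour.

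CER4, a fatty acyl-CoA reductase that makes primary alcohols for waxes and suberin, fell. It went from 22.1 to 13.6 CPM in Exp 1 and from 16.6 to 8.16 CPM in Exp 2, a log2 fold change of -0.85 ± 0.12 (adjusted p = 0.029, edgeR). XTH17, a second xyloglucan-modifying enzyme, fell from 67.5 to 47.0 CPM and from 57.5 to 32.4 CPM (-0.68 ± 0.10, adjusted p = 0.032), while XTH23 rose. AT3G19430, annotated as related to late embryogenesis abundant proteins, went from 51.0 to 32.8 CPM in Exp 1 and from 32.1 to 20.6 CPM in Exp 2, and fell by 0.64 on the log2 scale (adjusted p = 0.020), although the groups overlap because Exp 2 was lower at both supplies. CYP82C2, a P450 that hydroxylates an indole-carbonyl nitrile in defence metabolism, stood at 0.203 and 18.9 CPM at adequate Pi and at 0.0550 and 2.54 CPM at low Pi. Its call (-2.82 ± 0.36, adjusted p = 0.017) rests on Exp 2, in which the log2 ratio was -2.68, against -0.34 in Exp 1.

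**Figure D1:**
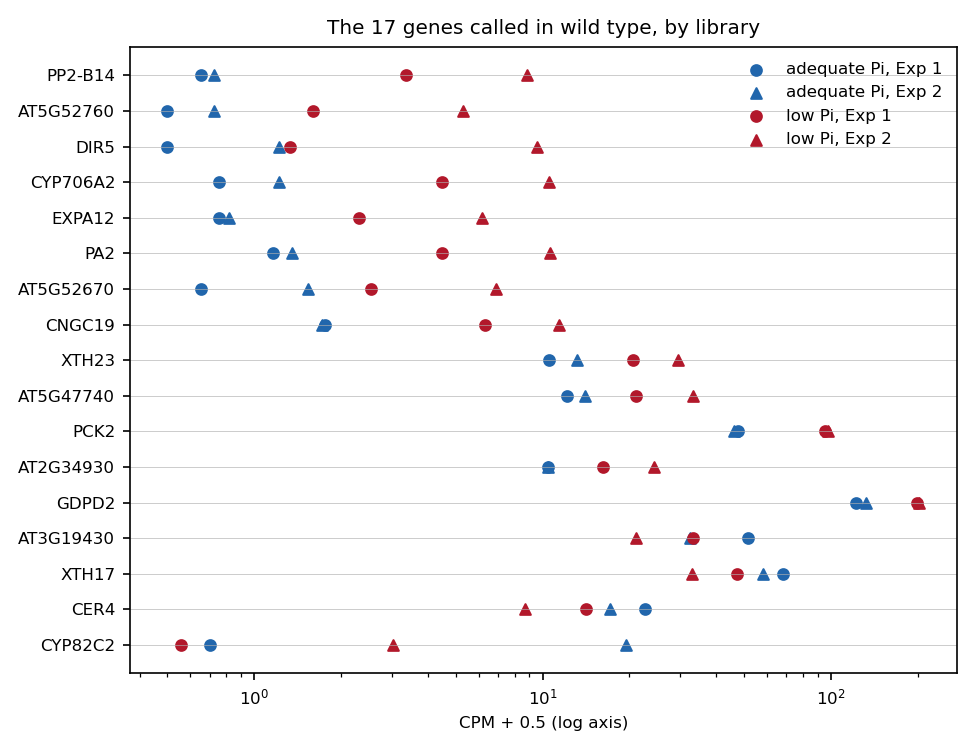
Level of the 17 called genes in each wild-type library, as CPM plus 0.5 on a log axis, with adequate Pi in blue, low Pi in red, Exp 1 as circles and Exp 2 as triangles. The red points lie right of both blue points for the 13 genes that rose, and PCK2 and GDPD2 have low Pi libraries close together, whereas CYP82C2 varies more between Exp 1 and Exp 2 than between Pi supplies.

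These calls depend on single libraries. The blocked fit called 3 genes higher and 2 lower without adequate Pi replicate 1, 185 and 63 without low Pi replicate 1, 0 and 0 without adequate Pi replicate 2, and 11 and 0 without low Pi replicate 2. Of the 17 genes, PCK2 kept its call under 10 of 12 alternatives and CNGC19 under 9. GDPD2, XTH17 and AT5G52670 kept it under 6 of 12, AT2G34930 under 5 of 12, EXPA12 under 5 of 11 and AT5G52760 under 4 of 11, and the other 9 under 7 or 8. In these alternatives the 17 kept their direction wherever they could be fitted. DESeq2 without the block is not among the 12. It shared 9 of the higher calls and 0 of the lower ones, and the direction of the 17 was not checked there.

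The promoters of the called genes were searched for letters bound by known factors, in windows of 300 bases, 250 before to 50 after the annotated gene start, from RefSeq's TAIR10.1 annotation. CGCGTT, a core recognised by calmodulin-binding CAMTA factors, was in 5 of 17 (29.4%), against 3.77% of the 19963 windows of tested features. The 5 were PP2-B14, EXPA12, CNGC19, PA2 and PCK2. The G-box CACGTG was in 0 of 17 and in 8.58% of all. P1BS (GNATATNC, a palindrome, so both strands read alike) was in 2 of 17, 11.8%, against 6.14%. CGCGTT was searched on both strands, where AACGCG is its other reading, and in EXPA12, PCK2 and PRX52 the matches on the 2 strands overlap. A match is a run of letters, not a site shown to be bound. The stretches of the called genes, and of the peroxidase PRX52 described below, are printed because the called genes hold this motif more often than the background; capitals mark the match. Positions are counted from the gene start, negative upstream.
PP2-B14 (chr1:21063140-21063205, minus strand, position -128): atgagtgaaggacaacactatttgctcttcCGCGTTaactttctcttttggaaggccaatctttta
CNGC19 (chr3:6044812-6044877, plus strand, position -160): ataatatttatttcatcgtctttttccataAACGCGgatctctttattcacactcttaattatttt
EXPA12 (chr3:5190450-5190515, plus strand, position -74): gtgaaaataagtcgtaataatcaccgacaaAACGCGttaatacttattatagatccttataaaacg
PA2 (chr5:2078971-2078998, minus strand, position 18): gtcaagaaataCGCGTTtaatcgacttt
PCK2 (chr5:26266189-26266216, plus strand, position 20): aggctaattaaAACGCGttaattactga
PRX52 (chr5:1580924-1580989, minus strand, position -84): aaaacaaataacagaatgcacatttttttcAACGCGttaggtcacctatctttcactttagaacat

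Genes of Pi transport and sensing were mostly higher at low Pi in both Exp, yet edgeR called 0 of the 20 tested, with 8 at an unadjusted p under 0.05, against 5.4% of all features. DESeq2 with the block called 3, PHT1;1, PHT1;8 and SPX1, all higher (adjusted p = 0.0050, 0.012 and 0.029). Over all 20262 features it called 53 higher and 18 lower. The median log2 fold change of the 20 was 0.60, against 0.00 for all features, with 0.37 within Exp 1 and 0.66 within Exp 2. Of the 20, 12 were higher within both Exp, against 27.2% of all features, and 3 lower, against 26.5%. The filter on low counts ran over all 8 libraries and can be met by low Pi libraries alone or by bzr1-D libraries alone. These counts therefore describe the members tested and not the list as a whole. The list held 25 names, of which 3 were not in the reference and 2 had too few counts.

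Of 6 PHT1 transporters tested, 5 were higher in both Exp, against 27.2% of all features. Of these, PHT1;2 had 3 and 6 counts at adequate Pi and 13 and 87 at low Pi, and 1084 to 3089 in the bzr1-D libraries. The remaining one, PHT1;3, had 1 and 0 counts at either supply, and 51 to 136 in the bzr1-D libraries. PHT1;1, PHT1;3 and PHT1;2 lie together on chromosome 5 (17399789 to 17417798). Neighbouring copies of a family can share reads, so their counts are uncertain. PHT1;1, the main Pi uptake carrier of roots, stood at 211 and 189 CPM at adequate Pi and at 331 and 307 CPM at low Pi. The groups are well separated and the 2 Exp gave 0.65 and 0.70, but its log2 fold change of 0.67 ± 0.14 had an adjusted p of 0.22. PHT1;4, a second uptake carrier, went from 47.4 to 101 CPM in Exp 1 and from 36.8 to 134 CPM in Exp 2 (1.54 ± 0.52, adjusted p = 0.92). PHT1;8 had 3 counts over both adequate libraries and 45 over both low ones, a ratio of 17.2 with an exact 95% interval of 5.51 to 86.4, which covers counting error only. PHT1;9 was at 1.47 and 2.203 CPM at adequate Pi and at 2.64 and 4.70 CPM at low Pi (0.99 ± 0.30, adjusted p = 0.55). PHF1, which lets PHT1 proteins leave the endoplasmic reticulum, was at 34.7 and 31.9 CPM and at 45.8 and 58.1 CPM (0.65 ± 0.18, adjusted p = 0.61).

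Of the SPX sensors, 3 of 4 were higher in both Exp, against 27.2% of all features. SPX1 went from 7.45 to 29.0 CPM in Exp 1 and from 7.78 to 88.5 CPM in Exp 2, so the adequate libraries hardly differ and the low ones differ severalfold. Its log2 fold change was 2.93 ± 0.85 (adjusted p = 0.89, edgeR). SPX3 went from 0.152 to 0.3303 CPM and from 0.135 to 2.65 CPM, a log2 ratio of 0.35 and 2.31. SPX2 was at 16.7 and 19.9 CPM and at 22.4 and 31.1 CPM (0.54 ± 0.16, adjusted p = 0.52), and SPX4 had 0.05 within Exp 1 and -0.10 within Exp 2. The non-coding RNA AT4, which sequesters miR399, went from 24.1 to 69.3 CPM and from 26.9 to 298 CPM. Its sister IPS1 went from 0.0507 to 0.716 CPM and from 0.360 to 6.32 CPM. For both, the low library of Exp 2 is by far the highest of the 4, and neither passed the test (adjusted p = 0.89 and 1.0, edgeR).

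Most regulators and exporters had small fold changes. PHR1 was at 51.1 and 63.5 CPM at adequate Pi and at 52.8 and 59.4 CPM at low Pi, with a gene overlapping it, and its partner PHL1 had a log2 fold change of -0.05 ± 0.10. PHO1, which loads Pi into the xylem, had -0.04 ± 0.14 and a different sign in the 2 Exp. PHO1;H1 had a larger value, 0.40 ± 0.25, with 0.17 and 0.58 within the 2 Exp, and was not called. PHO2, a ubiquitin-conjugating enzyme that removes Pi carriers, was at 416 and 426 CPM and at 376 and 308 CPM, lower in both Exp (-0.30 ± 0.15, adjusted p = 0.99). NLA, a ubiquitin ligase that acts with it, was lower in both Exp as well (-0.27 ± 0.10, adjusted p = 0.79), but overlaps neighbours.

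**Figure D2:**
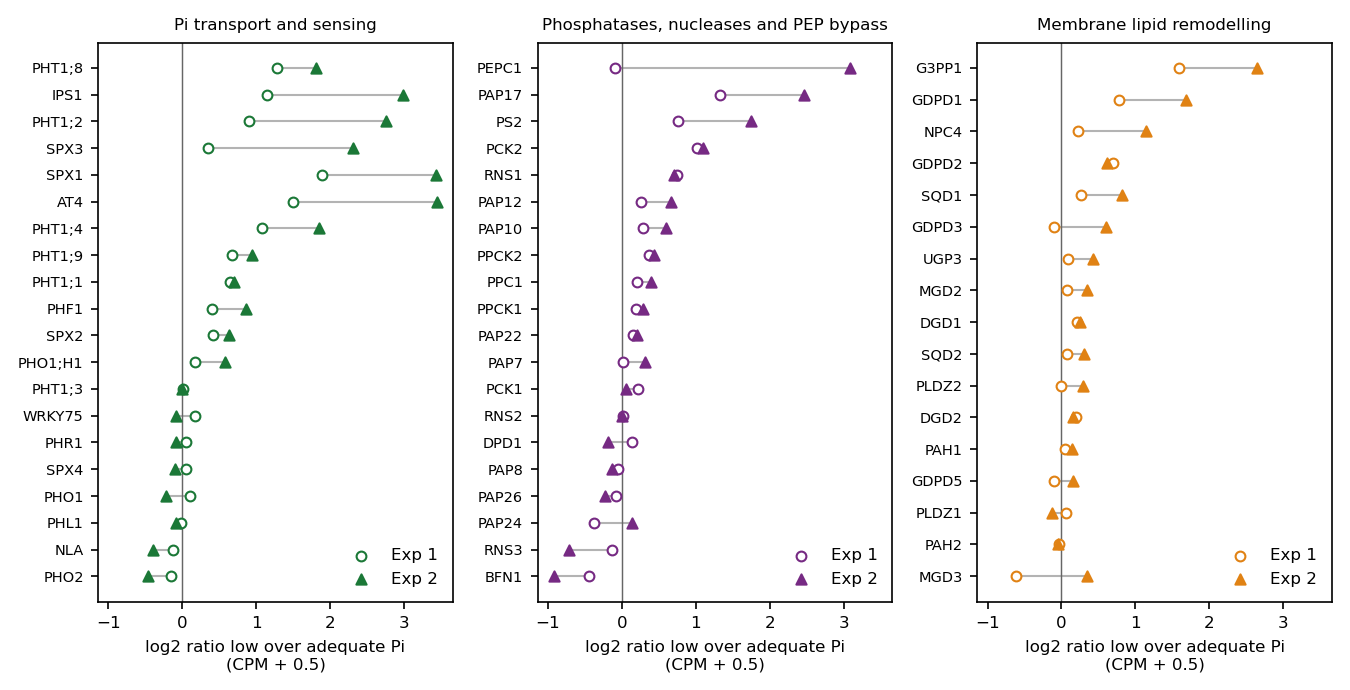
Log2 ratio of low over adequate Pi within Exp 1 (open circles) and within Exp 2 (filled triangles) for every tested member of 3 lists, on the scale of CPM plus 0.5, ordered by fitted fold change. For AT4, SPX1, SPX3, IPS1 and PEPC1 the triangle lies far right of the circle, whereas PCK2, PHT1;1 and GDPD2 have both symbols close together.

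In the list of phosphatases, nucleases and enzymes that bypass phosphate-consuming steps of glycolysis, 1 of 20 was called, PCK2. DESeq2 with the block called PAP17 and PS2 as well (adjusted p = 0.038 and 0.041). The median log2 fold change was 0.22, with 0.17 and 0.30 within the 2 Exp. Of the 20, 13 were higher in both Exp, against 27.2% of all features, and 4 lower, against 26.5%. The purple acid phosphatase PAP17 went from 7.09 to 18.4 CPM and from 7.55 to 43.8 CPM (2.06 ± 0.54, adjusted p = 0.79), but overlaps another gene. PAP12, which is secreted, went from 60.9 to 72.9 CPM and from 59.7 to 95.1 CPM (0.47 ± 0.11, adjusted p = 0.20). Of the 8 purple acid phosphatases tested, 5 were higher and 2 lower in both Exp, against 27.2% and 26.5% of all features. PS2, annotated as an inorganic pyrophosphatase, was at 2.99 and 2.47 CPM and at 5.39 and 9.46 CPM. PEPC1, a phosphatase of phosphoethanolamine and phosphocholine, had 0.152 and 0.110 CPM in Exp 1 and 0.0899 and 4.49 CPM in Exp 2, so that of the 4 libraries the low one of Exp 2 stands alone. The kinases PPCK1 and PPCK2, which activate phosphoenolpyruvate carboxylase, and the carboxylase PPC1 had 0.24 ± 0.09, 0.42 ± 0.15 and 0.30 ± 0.15, and PPCK1 overlaps another gene. BFN1, a nuclease of cell death, was at 13.5 and 12.8 CPM and at 9.80 and 6.54 CPM (-0.70 ± 0.15, adjusted p = 0.16), and the ribonuclease RNS3 had -0.13 and -0.72 within the 2 Exp.

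In the membrane lipid list, edgeR called 1 of 17, GDPD2. DESeq2 with the block also called G3PP1 (adjusted p = 0.015), and the median was 0.24 (0.08 and 0.35 within the 2 Exp). Of 17, 11 were higher in both Exp, against 27.2% of all features, and 1 lower, against 26.5%. GDPD1, a second glycerophosphodiesterase, went from 14.4 to 25.2 CPM and from 15.1 to 49.4 CPM (1.31 ± 0.34, adjusted p = 0.70), but overlaps another gene. G3PP1, a putative glycerol-3-phosphate transporter, went from 17.3 to 53.1 CPM and from 12.0 to 77.5 CPM (2.22 ± 0.56, adjusted p = 0.77). NPC4, a phospholipase C that removes the head group, had log2 ratios of 0.22 and 1.14. SQD1 and SQD2, which make sulfolipid, had 0.59 ± 0.20 and 0.20 ± 0.14, while the galactolipid synthases MGD2, DGD1 and DGD2 had 0.26 ± 0.23, 0.24 ± 0.10 and 0.17 ± 0.13. MGD3 had -0.62 in Exp 1 and 0.35 in Exp 2. Over the 3 lists, 57 members were tested. Of these, 36 were higher within both Exp, against 27.2% of all features, and 37 had a higher log2 ratio, with its sign, in Exp 2 than in Exp 1. Without low Pi replicate 2 the medians of the phosphatase and lipid lists were 0.07 and 0.02, and that of the transport list 0.42.

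P1BS was in the promoters of 5 of 20 transport genes, 8 of 20 of the phosphatase list (40.0%) and 9 of 17 of the lipid list (52.9%), against 6.14% of all tested. In windows of 1000 bases, an alternative added after the first count, the shares were 70.0%, 55.0% and 58.8%, against 21.0%. The lists were drawn from knowledge of this response, in which P1BS was found, so these shares are a description. The stretches below belong to members described above and hold P1BS in capitals. GDPD2, the called member, holds it 42 bases after the start, and AT4 just before it.
GDPD2 (chr5:16441686-16441715, plus strand, position 42): gacgtggaatgGAATATTCgaacacgcata
GDPD1 (chr3:350036-350103, minus strand, position -63): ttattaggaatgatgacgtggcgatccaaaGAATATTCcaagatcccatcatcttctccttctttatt
NPC4 (chr3:845278-845345, minus strand, position -219): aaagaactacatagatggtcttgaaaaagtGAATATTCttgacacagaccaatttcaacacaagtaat
PS2 (chr1:27466528-27466595, minus strand, position -217): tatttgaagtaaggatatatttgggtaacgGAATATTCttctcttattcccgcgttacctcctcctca
SPX3 (chr2:18606290-18606357, plus strand, position -90): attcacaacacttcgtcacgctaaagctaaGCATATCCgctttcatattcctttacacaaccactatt
AT4 (chr5:894526-894581, plus strand, position -26): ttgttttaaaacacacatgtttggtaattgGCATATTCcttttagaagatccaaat
PHT1;4 (chr2:16257120-16257157, plus strand, position -7): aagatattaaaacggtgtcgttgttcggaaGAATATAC

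A ratio of over 1 on the log2 scale within both Exp was seen for 57 genes, and one under -1 within both for 0. The 57 were 75.0% of the 76 genes over 1 in Exp 1 and 28.1% of the 203 in Exp 2. Of the 57, 8 belonged to the 3 Pi lists (SPX1, AT4, IPS1, PAP17, PHT1;4, PHT1;8, G3PP1 and PCK2), 9 were called, and 44 changed by more in Exp 2. These 57 were chosen by their values in the 4 libraries, and those values are a description. With a pseudocount of 0.1 CPM in place of 0.5 the numbers were 89 and 3, and with 2 CPM 29 and 0.

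Among the 57 were 4 class III peroxidases. PRX52, which acts in lignification, went from 1.52 to 14.7 CPM and from 1.57 to 48.7 CPM, with within-Exp log2 ratios of 2.91 and 4.57. Its log2 fold change was 4.26 ± 0.74 with an adjusted p of 0.50 by edgeR. ASN1, an asparagine synthetase, went from 5.67 to 36.6 CPM and from 9.62 to 82.1 CPM (2.92 ± 0.38, adjusted p = 0.23). GAD4, a glutamate decarboxylase, went from 0.152 to 3.52 CPM and from 2.38 to 12.8 CPM (2.65 ± 0.90, adjusted p = 0.90). Of the calcium-binding proteins, TCH3, a calmodulin-like gene first found as raised by touch, went from 11.7 to 106 CPM in Exp 1 and from 79.7 to 367 CPM in Exp 2. For TCH3 the adequate libraries themselves differ severalfold, and a gene overlaps it (2.51 ± 0.68, adjusted p = 0.85 by edgeR and 0.042 by DESeq2 with the block).

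Several of the 57 are neighbours in the genome. Of them, 12 had another of the 57 within 25 kb. The 4 genes annotated as a copper transport family lie together on chromosome 5 (21363655 to 21387703) and CYP706A1 and CYP706A2 on chromosome 4 (11929359 to 11936755). Neighbouring copies of a family can share reads, and the treatment of multiply mapped reads is not known here. CYP706A1 went from 0.253 to 4.02 CPM and from 2.25 to 14.6 CPM. CGCGTT was in 10 of the 57 promoters (17.5%, against 3.77%), and P1BS in 6 (10.5%, against 6.14%). The 10 include the 5 called genes named above (PP2-B14, EXPA12, CNGC19, PA2 and PCK2), so this share is not separate from theirs. Product annotations also name 4 disease-resistance, receptor-like or Toll/interleukin-1 receptor proteins and 2 ankyrin repeat proteins among the 57. AT2G04460, an uncharacterised feature annotated as a pseudogene, had 2 counts over both adequate libraries and 585 over both low ones, a ratio of 335 with an exact 95% interval of 92.3 to 2772, which covers counting error only. Its low libraries were at 2.53 and 29.1 CPM, and its log2 fold change did not pass the test (8.08 ± 2.90, adjusted p = 0.96, edgeR).

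**Figure D3:**
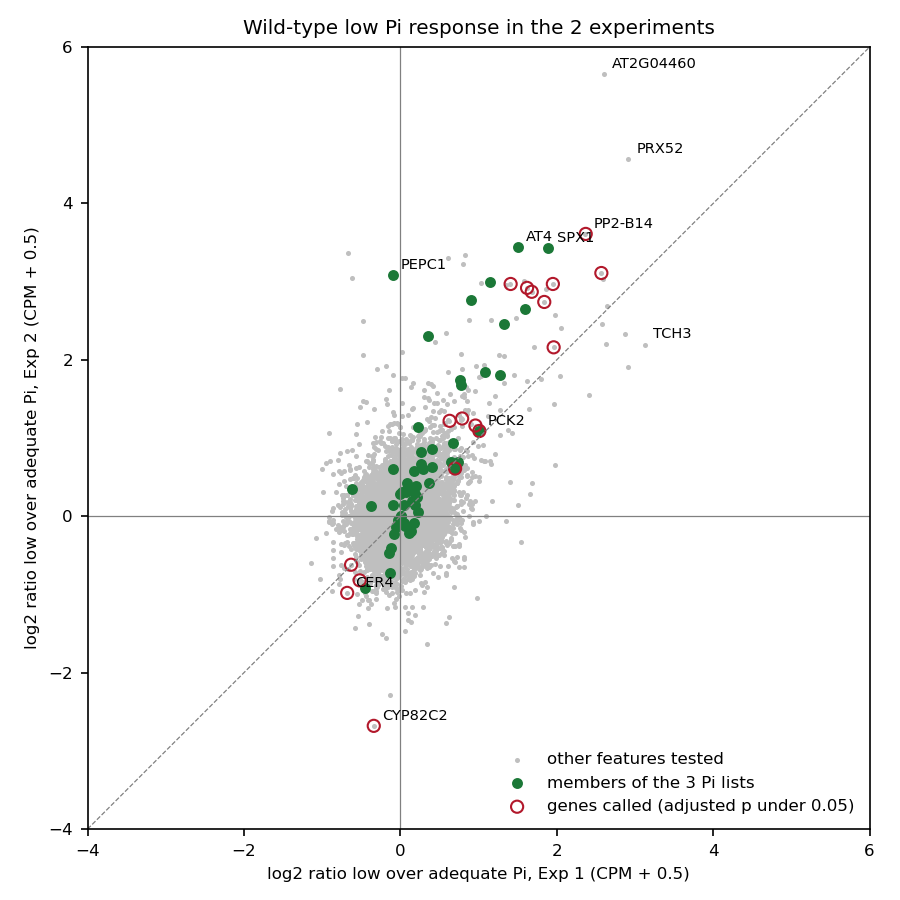
Log2 ratio of low over adequate Pi in Exp 1 (horizontal) and Exp 2 (vertical) for all tested features, on the scale of CPM plus 0.5, with members of the 3 Pi lists filled in green and the 17 called genes ringed in red. The dashed line marks equal ratios, and most strongly raised genes lie above it.

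Across all 20262 features, the log2 ratios of the 2 Exp had a Pearson correlation of 0.345 and a Spearman correlation of 0.151, and 53.8% had the same sign. Genes are not independent replicates, and the Exp ratios use separate libraries. The spread of the ratios was 0.225 (SD across features) in Exp 1 and 0.307 in Exp 2.

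The genes lowest by the smaller of the within-Exp ratios included CER4 and AT3G19430, described above, and 8 that did not pass the test. AT4G25250, a pectin methylesterase inhibitor-like gene, went from 31.2 to 16.8 CPM and from 11.8 to 5.84 CPM (-0.93 ± 0.17, adjusted p = 0.12). ELIP1, an early light-induced protein of chloroplasts, was at 21.0 and 8.97 CPM at low Pi, below both adequate libraries (-0.98 ± 0.19, adjusted p = 0.20). MYB61, a transcription factor of wall formation, was at 13.6 and 11.5 CPM and at 9.14 and 7.51 CPM (-0.59 ± 0.12, adjusted p = 0.14). In PUT1, a polyamine transporter, AT2G17590, AT4G37950, AT5G43570 and AT1G33813 the level at adequate Pi was a few CPM, with log2 fold changes from -1.02 to -0.78.

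Of the other lists, flavonoid genes were lower in both Exp for all 9 members tested of 14, against 26.5% of features, with a median of -0.33 (-0.27 and -0.30 within the 2 Exp). UGT78D2, a flavonoid glucosyltransferase, went from 52.3 to 41.6 CPM and from 43.4 to 28.5 CPM (-0.47 ± 0.10, adjusted p = 0.18), and MYB12, an activator of the pathway, from 19.3 to 14.4 CPM and from 16.5 to 13.5 CPM (-0.35 ± 0.11, adjusted p = 0.56). CHS, the first enzyme, had -0.28 ± 0.11 and overlaps a neighbour. EdgeR called 0 of the 9, with 4 at an unadjusted p under 0.05, and DESeq2 with the block 0. Leaving out any 1 wild-type library gave medians from -0.47 to -0.29.

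Iron deficiency genes differed between the Exp numbers, and edgeR and DESeq2 with the block called 0 of 21, with 2 at an unadjusted p under 0.05. The median was -0.22, with 0.05 within Exp 1 and -0.41 within Exp 2, and it was 0.11 without adequate Pi replicate 2. FRO2, the ferric chelate reductase of roots, stood at 62.5 and 257 CPM at adequate Pi and at 76.4 and 114 CPM at low Pi. CYP82C4, a P450 of iron-deficient roots, had 48.8 and 206 CPM at adequate Pi and 55.8 and 85.5 CPM at low Pi. IRT1, the iron uptake transporter, had 68.4 and 219 CPM and then 73.0 and 86.9 CPM. In all of these the adequate library of Exp 2 is the highest of the 4.

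In the list of wall-loosening enzymes, edgeR called 1 of 20 higher (XTH23) and 1 lower (XTH17), and the called expansin EXPA12 is not in the list. Of the 20, 11 were higher within both Exp, against 27.2% of all features, and 5 lower, against 26.5%. The list had medians of 0.08 in Exp 1 and 0.47 in Exp 2. XTH13 went from 6.43 to 6.55 CPM and from 5.26 to 15.2 CPM, and XTH12 from 12.1 to 13.5 CPM and from 7.01 to 19.0 CPM, so they differ in Exp 2 and hardly in Exp 1. In the touch, calcium and early stress list, edgeR called 1 of 22 (CNGC19) and DESeq2 with the block 2 (CNGC19 and TCH3). Of the 22, 10 were higher in both Exp, against 27.2% of all features, and 2 lower. Among its WRKY factors, 4 of 5 were higher in both Exp, against the same 27.2%. WRKY40 was at 5.52 and 11.4 CPM and at 10.5 and 19.8 CPM (0.84 ± 0.19, adjusted p = 0.22), and overlaps a neighbour. JAZ10, a repressor of jasmonate signalling, went from 2.18 to 4.40 CPM and from 1.62 to 11.5 CPM (2.02 ± 0.46, adjusted p = 0.42 by edgeR and 0.015 by DESeq2 with the block). In the suberin list, 1 of 11 was called (CER4). The malate channel ALMT1, from the list of local Pi sensing, had 0.56 ± 0.14 (adjusted p = 0.41), and HMA2, a zinc pump, 1.08 ± 0.20 (adjusted p = 0.10 by edgeR and 0.029 by DESeq2 with the block). All 5 CASP genes, which build the Casparian strip, were lower in both Exp, with CASP5 at -0.48 ± 0.15 (adjusted p = 0.55). In their whole list, 6 of 9 were lower in both Exp, against 26.5% of all features, and 1 was higher in both, against 27.2%. The clock list was lower in both Exp for 7 of 11 members (median -0.14), against 26.5% of all features, with PRR5 at -0.30 ± 0.11.

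**Figure D4:**
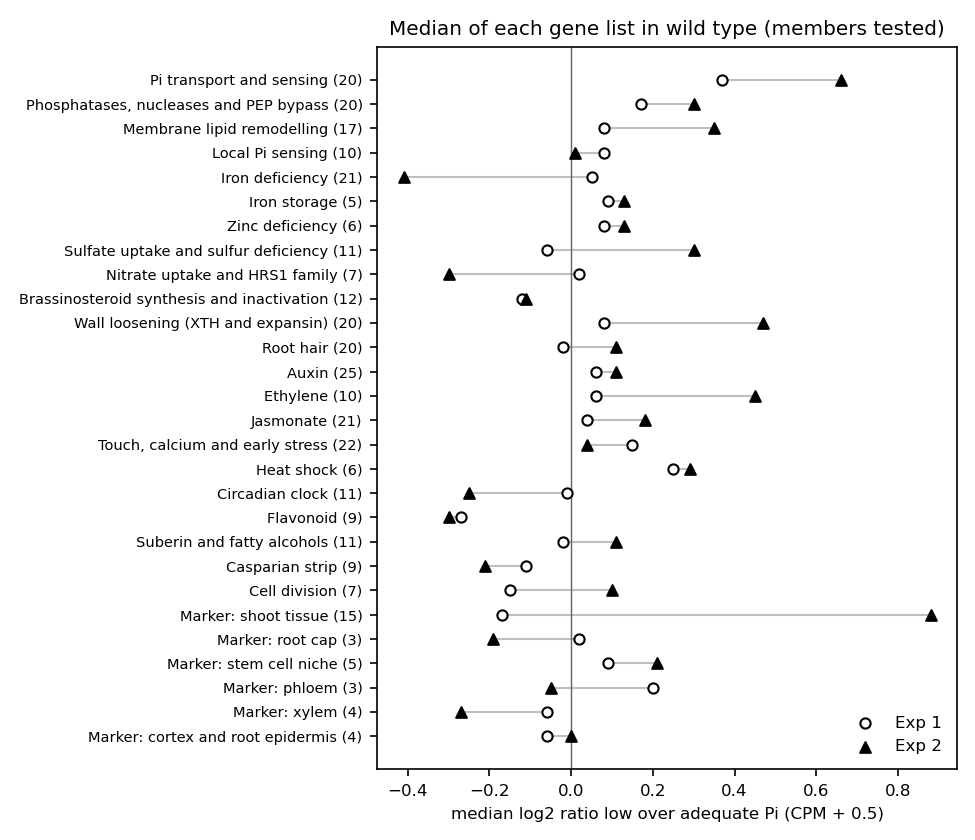
Median log2 ratio of low over adequate Pi in each gene list within Exp 1 (open circles) and within Exp 2 (triangles), with the number of members tested in brackets. The Pi lists lie right of 0 in both, the flavonoid list left of 0 in both, and the shoot marker and iron deficiency lists differ most between the 2 Exp.

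In the remaining lists edgeR called 0 members, with 0 to 3 in each at an unadjusted p under 0.05, and DESeq2 with the block called HMA2 and JAZ10. Their medians over both Exp were 0.08 for local Pi sensing (10 tested), 0.08 for iron storage (5), 0.14 for zinc deficiency (6), 0.19 for sulfate uptake (11), -0.15 for nitrate uptake (7), -0.12 for brassinosteroid synthesis (12), 0.08 for root hair genes (20), 0.11 for auxin (25), 0.27 for ethylene (10), 0.11 for jasmonate (21), 0.32 for heat shock (6), -0.18 for the Casparian strip (9) and 0.02 for cell division (7). With 1 library left out, the median ranged from -0.03 to 0.49 for ethylene, from -0.02 to 0.22 for auxin, from 0.03 to 0.59 for heat shock, from -0.11 to 0.46 for sulfate uptake, from -0.12 to 0.21 for root hair genes and from -0.24 to 0.06 for nitrate uptake. It also turned sign for iron storage (-0.17 to 0.24) and cell division (-0.13 to 0.11), and in lists described above for wall loosening (-0.11 to 0.60), touch (-0.08 to 0.38), suberin (-0.02 to 0.10) and the clock (-0.31 to 0.01). Among cell type markers the medians were -0.09 for root cap, 0.18 for the stem cell niche, 0.09 for phloem, -0.15 for xylem and -0.04 for cortex and epidermis. The shoot marker list had 0.25, with -0.17 within Exp 1 and 0.88 within Exp 2, and ranged from -0.09 to 0.78 with 1 library left out.

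In bzr1-D roots, which were separate libraries, the called genes that rose mostly had the same direction. All 13 had a positive log2 fold change in bzr1-D, though that of AT2G34930 was 0.03 ± 0.16. DIR5 (1.95 ± 1.23) had 0 counts at either supply in Exp 1, and 1 and 5 in Exp 2, in bzr1-D. EXPA12 (1.48 ± 0.99) rested on 1 to 9 counts per bzr1-D library, with a log2 ratio of -0.04 within Exp 2. Of the 4 that fell, 3 had a negative log2 fold change in bzr1-D, each within 1 SE of 0. These were CER4, XTH17 and CYP82C2, the last at -0.69 ± 1.0 on 1 to 5 counts per library. The share of all features with the same sign in both genotypes was not counted. In bzr1-D, 4 genes were called (0.0197% of features), of which PCK2 (0.74 ± 0.09) and GDPD2 (0.81 ± 0.10) were also called in wild type, both at adjusted p = 0.020 by edgeR. For the difference of the 2 responses edgeR called 0 genes, with 646 features at an unadjusted p under 0.05 and 1 called by DESeq2 with the block. The smallest adjusted p of that difference among the 17 was 0.0788, for AT3G19430, which had -0.64 ± 0.09 in wild type and 0.35 ± 0.09 in bzr1-D. CER4 had -0.85 ± 0.12 and -0.06 ± 0.11, XTH17 -0.68 ± 0.10 and -0.01 ± 0.10, and AT2G34930 0.97 ± 0.15 and 0.03 ± 0.16. The median of the Pi transport list was 0.85 in bzr1-D and 0.60 in wild type, that of the phosphatase list 0.52 and 0.22, and that of the lipid list 0.81 and 0.24. MGD3 had 1.68 ± 0.30 in bzr1-D and -0.10 ± 0.36 in wild type, and SQD2 0.96 ± 0.14 and 0.20 ± 0.14, and neither difference passed the test (adjusted p = 1.0, edgeR). Of the 57 genes, 47 (82.5%) were higher in both Exp in bzr1-D, against 25.8% of all features, and 20 were over 1 in both. Their median log2 fold change was 2.51 in wild type, where they were chosen, and 1.37 in bzr1-D.

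**Figure D5:**
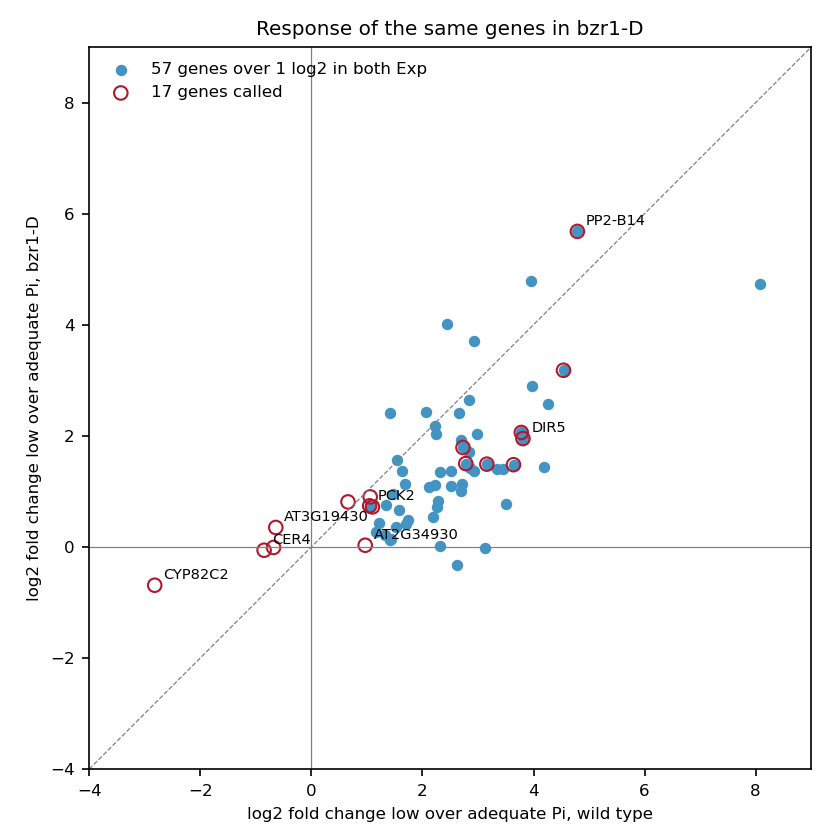
Fitted log2 fold change of low over adequate Pi in wild type (horizontal) and bzr1-D (vertical) for the 57 genes over 1 in both wild-type Exp (filled) and the 17 called genes (rings). The dashed line marks equal change, and most points lie below it and above 0; the filled points were chosen by their wild-type values.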

How the data were processed

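Polyadenylated RNA of 8 root libraries was sequenced as 50-base single reads, per the labels' protocols. The authors deposited 1 table of whole-number read counts per annotated feature, with no normalization. Per the submitters' processing notes, DESeq2 1.2.8, HTSeq 0.6.1 and TopHat2 2.0.11 were used, with the TAIR10 build. Their settings, among them strand and multiply mapped reads, were not given in the sources used here. If reads over 2 features were dropped or split, counts of overlapping genes and close copies would be affected, so these are given as uncertain.

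Groups came from the sample titles, since the labels carry the strain and tissue values under each other's tag. The 2 libraries of a group are labelled biological replicates; nothing says what libraries with the same Exp number share, so p-values measure the spread between these libraries. No library was a copy of another (chi-square per degree of freedom of 17.6 to 37.9 within groups). Whether the Exp number pairs libraries was checked on deviations from group means over 20262 features: same-numbered libraries deviated together in all 6 pairs of groups (correlations of 0.345 to 0.685).

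The main test was that of edgeR 4.0.16, run in R 4.3.3 (quasi-likelihood test, robust, TMM, default filter with a minimum count of 10), over all 8 libraries with group and Exp number as terms, which leaves 3 residual degrees of freedom. P-values were adjusted by Benjamini-Hochberg over all features tested; SE is the fold change divided by the square root of F. Alternatives used DESeq2 1.42.0 and limma 3.58.1. Of the 40246 features, 32940 matched a reference locus. Promoters were read from RefSeq's TAIR10.1, and gene coordinates are those of the deposited table. The tests were tried on simulated data.

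The members and lists were chosen with earlier results of these data known, so lists have counts and medians and no test. The 28 lists named 374 distinct genes, of which 331 were tested; 31 did not pass the filter and 12 names found no reference locus. Named genes are those called, list members (by smallest p, or by the largest difference between Exp), and the 10 largest rises and falls by the smaller within-Exp ratio at a mean of at least 2 CPM; others were chosen after their values were seen.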

Additional observations from a re-analysis of the deposited data

How the results depend on the processing

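The number of genes called varied with the settings, and the direction of the 17 did not wherever it was checked. It was not checked in DESeq2 without the block. Against 13 higher and 4 lower, the edgeR fit with no replicate block called 0 and 0. The 4 wild-type libraries alone, with the block and 1 residual degree of freedom, gave 305 and 170. No filter on low counts gave 27 and 9, DESeq2 with the block 53 and 18, DESeq2 without it 28 and 0, and limma-voom with the block 2 and 0. Leaving out 1 wild-type library at a time gave 0 to 185 higher and 0 to 63 lower. For bzr1-D minus wild type, the counts were 1 higher with no filter, 1 higher with DESeq2 and the block, and 0 to 11 higher and 0 to 22 lower with 1 library left out. DESeq2 size factors, a stricter filter and a fit without robust estimation gave wild-type counts within 1.5 times, with 16 of the 17 genes, 13 of the 14 fitted and 11 of the 17 still called. The median of the phosphatase list ranged from 0.07 to 0.33 and that of the lipid list from 0.02 to 0.45 with 1 library left out. The rises over 1 in both Exp numbered 89 (and 3 falls) at a pseudocount of 0.1 CPM and 29 at 2 CPM. The cause of these changes was not tested. With 2 libraries per group, genes near 0 CPM at adequate Pi rest on a handful of counts.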
